A study of Homo sapiens with 2 samples.

Results

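Collagens, laminins and integrins are the chains with which a cell builds its surrounding matrix and holds on to it. They were described here as 82 genes of the 19927 in the count table, chosen by symbol. The choice of these genes, and of the other gene lists below, was made with earlier results of these data known. The 82 were 44 collagen chains, 12 laminin chains and 26 integrin chains. The cells were Huh7, an established line of human hepatocellular carcinoma, grown in serum-containing medium. The control culture carried a control hairpin (title shControl, genotype label WT), and the other culture a hairpin against PPIL1 (title shPPIL1#1, genotype label PPIL1 knockdown), called shPPIL1 here. PPIL1 is a peptidyl-prolyl isomerase of the spliceosome. Each group was 1 library of polyadenylated RNA, and no other PPIL1 hairpin is among the labels, so no value given here has a replicate check and no test between the groups was possible. "Higher" and "lower" always mean the shPPIL1 library against the shControl library.

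Collagen chains wind in threes into triple helices, and many collagens need chains from more than a single gene to form the normal molecule. A laminin is a cross-shaped trimer of an alpha, a beta and a gamma chain, and laminins together with type IV collagen form the sheets called basement membranes. Integrins are receptors made of an alpha and a beta chain. The pair decides whether the receptor binds collagen, laminin, proteins with an RGD motif such as fibronectin and vitronectin, or other ligands. In liver, hepatic stellate cells are the main producers of fibrillar collagen, and hepatocytes bind matrix largely through integrins that hold the beta-1 chain.

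Counted reads numbered 41015345 in shControl and 41165401 in shPPIL1. PPIL1, the targeted gene, had 1505 reads in shControl and 104 in shPPIL1, a ratio of 0.0679 (0.0551 to 0.0829). Here and below, a ratio is the shPPIL1 over the shControl read count after scaling for library size, and the range after it is an exact 95% interval that covers counting error only. A gene was kept for ratios when it reached 1 CPM (a read count scaled for library size, here at least 41 reads) in at least 1 library. All 8 hepatocyte markers examined were kept, with AFP at 4564 and 4612 FPKM and ALB at 3203 and 3270 FPKM. FPKM, which divides reads by gene length and library size, is the scale used to compare levels between genes. Of 8 endothelial markers 1 was kept, and KDR and CLEC4G had 0 reads in both libraries. The summed level of that list was 1.63 FPKM in shControl and 1.44 in shPPIL1. Of 8 stellate cell and fibroblast markers 3 were kept (PDGFRA, LUM and RGS5), and the summed level was 18.8 and 18.2 FPKM. ACTA2, DCN, PDGFRB and LRAT had between 0 and 20 reads. Of 8 leukocyte markers 3 were kept (CD68, CD14 and LYZ), with 0 reads of CD163 and a summed level of 245 and 201 FPKM, mostly LYZ. Of 8 cholangiocyte markers 6 were kept, with 0 reads of KRT7 and a summed level of 552 and 557 FPKM. In bulk RNA, fewer cells of a kind and less RNA per cell cannot be told apart.

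Of the 82 chains, 70 had at least 1 read, 43 were kept and 12 had 0 reads in both libraries. The 43 were 19 collagen, 8 laminin and 16 integrin chains. The 12 at 0 were COL1A2, COL6A3, COL8A2, COL15A1, COL20A1, COL22A1, COL25A1, LAMA1, LAMC3, ITGAX, ITGB2 and ITGB7, and a count of 0 allows up to 3 reads per library, or 0.0737 CPM in shControl. Of the kept chains, 38 reached the filter in both libraries, 3 through shControl alone and 2 through shPPIL1 alone. A chain in the last 2 classes had to differ in order to enter, and those 5 are COL3A1, ITGA9, COL6A2, COL21A1 and ITGB3.

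**Figure D1:**
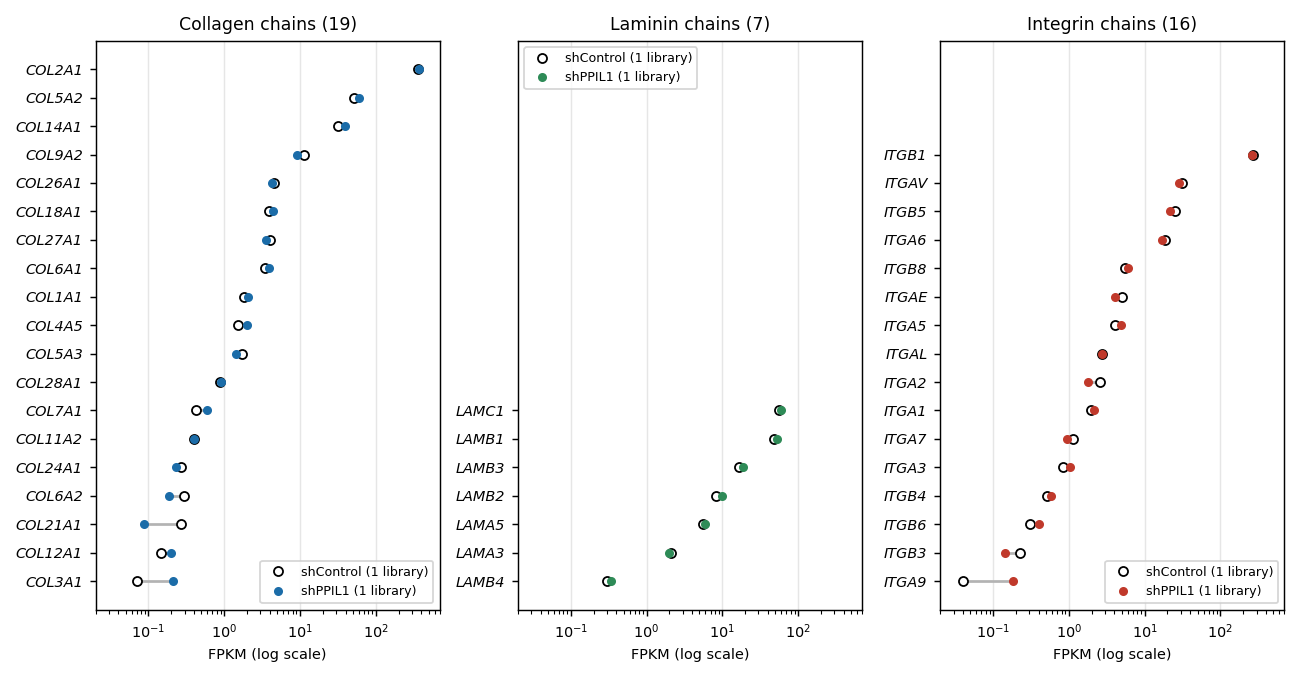
Level of 42 of the 43 kept chains in FPKM (log axis) in the shControl library (open circles) and the shPPIL1 library (filled circles), by family. COL2A1 (361 and 373 FPKM) and ITGB1 (270 and 265 FPKM) lie far above the other chains of their families, and most pairs of circles overlap.

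Cartilage-type collagen led the collagen family in these liver cancer cells. COL2A1, the chain of type II collagen, the fibrillar collagen of cartilage, had 75015 reads in shControl and 77731 in shPPIL1. Its level was 361 and 373 FPKM, or 75.2% and 73.7% of the FPKM summed over all 44 collagen genes. The libraries were close, with a ratio of 1.02 (1.01 to 1.03). The 54 exons of COL2A1 lie between 47972965 and 48004554 on chromosome 12 (GRCh38). COL5A2, the alpha-2 chain of type V collagen, stood next at 51.0 and 59.3 FPKM (14824 and 17294 reads), with a ratio of 1.15 (1.12 to 1.17). COL14A1, a collagen that sits on the surface of fibrils, had 8276 and 10170 reads and 32.0 and 39.2 FPKM, with a ratio of 1.21 (1.17 to 1.24). COL9A2, a chain of the fibril-associated type IX collagen of cartilage, had 1212 and 982 reads and 11.3 and 9.15 FPKM, with a ratio of 0.796 (0.731 to 0.867). No other collagen exceeded 5 FPKM in either library.

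The remaining fibrillar chains were low. COL1A1, the main chain of type I collagen, had 415 and 470 reads (1.82 and 2.05 FPKM), with an interval including 1, and COL27A1 and COL5A3 were slightly lower, with ratios of 0.887 (0.807 to 0.975) and 0.833 (0.715 to 0.968). COL11A2 and COL24A1 had between 59 and 88 reads and intervals including 1. COL3A1, the type III chain, had 16 reads in shControl and 48 in shPPIL1 (0.0711 and 0.212 FPKM), a ratio of 2.95 (1.64 to 5.56). It passed the filter through the shPPIL1 library alone, and with the filter set on the mean of both libraries it was not kept. Of the 8 kept fibrillar chains, 3 were higher and 2 lower with an interval excluding 1, beside 24.6% and 26.4% of all 12540 kept genes. COL3A1 is among the 3 and had to be higher in order to enter, so nothing is read from this count.

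Several collagens were expressed without a chain they are known to pair with. COL1A2, the partner of COL1A1 in the usual type I molecule, had 0 reads in both libraries. COL5A1, the partner of COL5A2, had 2 reads in shControl and 0 in shPPIL1. COL6A1 had 601 and 677 reads (3.49 and 3.91 FPKM), whereas COL6A3, the third chain of type VI collagen, had 0 in both. COL6A2, the second, had 41 and 26 reads and passed the filter through shControl alone, with a ratio of 0.623 (0.366 to 1.04). Of the partners of COL9A2, COL9A1 had 0 and 6 reads and COL9A3 20 and 17 reads. Messenger RNA was measured here, and protein was not.

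Type IV collagen, the network collagen of basement membranes, was nearly silent apart from COL4A5. Its 6 genes are arranged as divergent pairs, each pair read in opposite directions from a common stretch of DNA. COL4A5 had 363 reads in shControl and 469 in shPPIL1 (1.54 and 1.98 FPKM), a ratio of 1.27 (1.10 to 1.46), while its neighbour COL4A6 had 13 and 3. COL4A1 and COL4A2, the chains of the most widespread type IV molecule, had 21 and 12 reads and 0 and 6 reads. COL4A3 had 11 and 15 reads and COL4A4 11 and 14. Both libraries thus showed COL4A5 above each of the other 5, which lay under the filter.

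The DNA between divergent starts is shown because COL4A5 and COL4A6 leave it with unequal read counts, and COL4A1 and COL4A2 with few or none. The RefSeq promoter table (GRCh38.p14) holds 58 of the 82 chains. COL4A1 and COL4A2 start 126 bases apart, and the whole interval, chr13:110307158-110307283 on the plus strand (the direction of COL4A2), is printed first. COL4A5 and COL4A6 start 379 bases apart at the COL4A6 start nearest to COL4A5, and the 250 bases before COL4A5, chrX:108439588-108439837 on the plus strand, are printed second. Capitals mark exact matches, on either strand, to the GC box, with the letters GGGCGG, to the CCAAT box, spelled as named, or to the TATA box, here searched with the letters TATAAA.
COL4A1-COL4A2: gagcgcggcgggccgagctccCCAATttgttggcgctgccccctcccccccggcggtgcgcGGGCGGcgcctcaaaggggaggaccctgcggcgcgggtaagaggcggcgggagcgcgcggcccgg
COL4A5: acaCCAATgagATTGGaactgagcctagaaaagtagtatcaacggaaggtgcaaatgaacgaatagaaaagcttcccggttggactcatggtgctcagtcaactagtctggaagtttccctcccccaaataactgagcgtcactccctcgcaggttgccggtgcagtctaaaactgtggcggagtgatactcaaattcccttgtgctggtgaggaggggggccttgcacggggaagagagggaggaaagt
The COL4A1-COL4A2 interval is 80.2% G and C, with 1 GC box and 1 CCAAT box. The stretch before COL4A5 is 51.2% G and C, with 2 CCAAT boxes and 0 GC boxes. Neither holds the TATA letters. Over the 35116 RefSeq windows of 300 bases (250 before a start and 50 after), 45.0% hold a GC box, 34.6% a CCAAT box and 11.5% a TATA box. For the 77 windows of the 58 chains the shares are 55.8%, 26.0% and 13.0%. A match is a run of letters and no evidence of a bound factor.

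Of the other collagens kept, COL18A1, a basement membrane collagen whose end fragment is endostatin, had 958 and 1086 reads (3.92 and 4.42 FPKM), a ratio of 1.11 (1.02 to 1.22). Exons of SLC19A1 on the opposite strand cover 21.3% of its transcript, and the strand setting of the counting is not given. COL7A1, which forms the anchoring fibrils under epithelia, had 141 and 193 reads, a ratio of 1.34 (1.08 to 1.68). COL21A1, a fibril-associated chain, had 43 and 14 reads (0.269 and 0.0872 FPKM), a ratio of 0.320 (0.162 to 0.596). COL21A1 passed the filter through shControl alone and was not kept when the filter was set on the mean of both libraries. COL12A1, COL26A1 and COL28A1 had intervals including 1.

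LAMC1 and LAMB1 were the most abundant laminin chains. LAMC1, the common gamma chain, had 18501 and 19722 reads and 56.9 and 60.4 FPKM. LAMB1 had 9172 and 9926 reads and 48.4 and 52.1 FPKM, or 65.8% and 64.3% of the FPKM summed over the beta genes. LAMA5 had 2415 and 2585 reads and 5.51 and 5.88 FPKM, or 71.2% and 73.7% of the alpha genes. LAMA5, LAMB1 and LAMC1 can assemble with each other, though LAMA5 stood below LAMB3 and LAMB2 in FPKM. The other alpha chains were LAMA3 (2.08 and 1.96 FPKM), LAMA4 (23 and 16 reads), LAMA2 (19 and 25 reads) and LAMA1 (0 and 0). All alpha genes together summed to 7.74 and 7.97 FPKM, well under the level of LAMC1.

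All 4 laminin beta genes were kept, and 3 of them were higher with an interval excluding 1, as were 24.6% of all kept genes. Those 3 had many reads and so narrow intervals, and the differences were small. The ratio was 1.06 (1.03 to 1.09) for LAMB1, 1.11 (1.06 to 1.17) for LAMB3 and 1.19 (1.12 to 1.26) for LAMB2, while LAMB4, with 64 and 73 reads, had an interval including 1. LAMB3 stood at 16.6 and 18.7 FPKM and LAMB2 at 8.24 and 9.92. LAMC1 had a ratio of 1.05 (1.03 to 1.07). Neither alpha chain kept, LAMA5 at 1.05 (0.995 to 1.11) or LAMA3 at 0.929 (0.836 to 1.03), had an interval excluding 1.

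The stretches before LAMB1 and LAMC1 are shown since these genes, on chromosomes 7 and 1, had nearly the same ratio. LAMA5, at 1.05, was as close to LAMC1, so this nearness is not particular to the pair. The 250 bases are chr7:108003162-108003411 on the minus strand for LAMB1 and chr1:183023170-183023419 on the plus strand for LAMC1, with capitals as above.
LAMB1: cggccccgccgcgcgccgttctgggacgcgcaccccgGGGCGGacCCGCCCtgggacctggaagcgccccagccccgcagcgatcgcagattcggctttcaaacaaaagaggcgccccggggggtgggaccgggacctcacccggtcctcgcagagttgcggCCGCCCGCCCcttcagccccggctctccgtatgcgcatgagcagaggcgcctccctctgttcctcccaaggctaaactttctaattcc
LAMC1: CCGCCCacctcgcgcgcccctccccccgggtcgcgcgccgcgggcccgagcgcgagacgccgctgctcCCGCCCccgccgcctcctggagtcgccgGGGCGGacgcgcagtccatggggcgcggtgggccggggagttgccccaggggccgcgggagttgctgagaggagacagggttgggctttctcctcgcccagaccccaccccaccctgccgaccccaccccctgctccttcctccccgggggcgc
LAMB1 has 4 GC boxes, a pair of which overlap, in a stretch that is 70.4% G and C. LAMC1 has 3 in 79.6% G and C, and neither holds CCAAT or TATA letters. GC boxes are common among promoters, as given above, so the shared letters are a description.

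Integrin expression rested on ITGB1, the beta-1 chain, which pairs with 12 of the alpha chains. ITGB1 had 41752 reads in shControl and 41114 in shPPIL1 and 270 and 265 FPKM, or 89.4% and 90.1% of the beta genes. The ratio was 0.967 (0.954 to 0.981). ITGB1 shares 12.4% of its 100-base windows with AC022149.1, a gene model elsewhere, and the handling of such reads is not given. Of the beta chains that join ITGAV, ITGB5 was lower and ITGB8 slightly higher. ITGB5, a chain of vitronectin receptors, had 4274 and 3728 reads and 25.2 and 21.9 FPKM, a ratio of 0.857 (0.820 to 0.896). ITGB8 had 2002 and 2172 reads (5.58 and 6.04 FPKM), a ratio of 1.07 (1.00 to 1.13). ITGB4 and ITGB6 were under 1 FPKM with intervals including 1. ITGB3 had 55 and 35 reads (0.226 and 0.143 FPKM), a ratio of 0.625 (0.397 to 0.972), and passed the filter through shControl alone. A gene model on the same strand, AC068234.1, shares 55.4% of its windows.

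Among alpha chains, ITGAV, which binds RGD proteins, and ITGA6, which binds laminin, were the most abundant, and both were slightly lower in shPPIL1. ITGAV had 8529 and 7991 reads and 30.9 and 28.8 FPKM, a ratio of 0.921 (0.893 to 0.949). ITGA6 had 3892 and 3631 reads and 18.4 and 17.1 FPKM, a ratio of 0.917 (0.876 to 0.959). Together these chains held 45.4% and 27.1% of the alpha sum in shControl and 44.9% and 26.7% in shPPIL1. Gene models on the opposite strand cover 9.90% of the ITGA6 transcript and 2.89% of that of ITGAV. ITGA5, the fibronectin receptor chain, was higher, with 582 and 706 reads (4.03 and 4.87 FPKM) and a ratio of 1.19 (1.07 to 1.33). ITGA3 and ITGA7, the other laminin binders, were near 1 FPKM with intervals including 1.

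The collagen-binding chains differed in direction. ITGA2 had 814 reads in shControl and 567 in shPPIL1 (2.55 and 1.77 FPKM), a ratio of 0.684 (0.614 to 0.763). ITGA1 had 850 and 957 reads (1.93 and 2.17 FPKM), a ratio of 1.11 (1.01 to 1.21). Exons of other genes on the same strand cover 4.42% of the ITGA1 transcript, and PELO shares 3.47% of its windows. Whether reads of PELO entered the ITGA1 count was not tested. ITGA1 and ITGA2 are both on chromosome 5. ITGA10 and ITGA11, the other collagen binders, had between 11 and 17 reads. Of the leukocyte-type chains, ITGAE had 735 and 596 reads (4.96 and 4.01 FPKM, ratio 0.797, 0.714 to 0.889) and ITGAL 489 and 497 reads (2.73 and 2.77 FPKM), although their partners ITGB7 and ITGB2 had 0 reads in both libraries. Exons of ZNF740 on the opposite strand cover 51.4% of the ITGB7 transcript and those of ITGB2-AS1 6.92% of the ITGB2 transcript, and whether the counting lost reads there was not tested. Gene models on the opposite strand cover 9.55% of the ITGAL transcript and 2.02% of that of ITGAE.

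ITGA9, which pairs with ITGB1 and binds tenascin-C and other ligands, had the highest ratio of the 43 kept chains. It had 13 reads in shControl and 59 in shPPIL1 (0.0403 and 0.182 FPKM), a ratio of 4.46 (2.42 to 8.86), and ITGA9-AS1 on the opposite strand covers 6.78% of its transcript. ITGA9 lies on chromosome 3 from 37452115 to 37823514 (GRCh38) and passed the filter through shPPIL1 alone. With the filter on the mean of both libraries it was not kept.

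**Figure D2:**
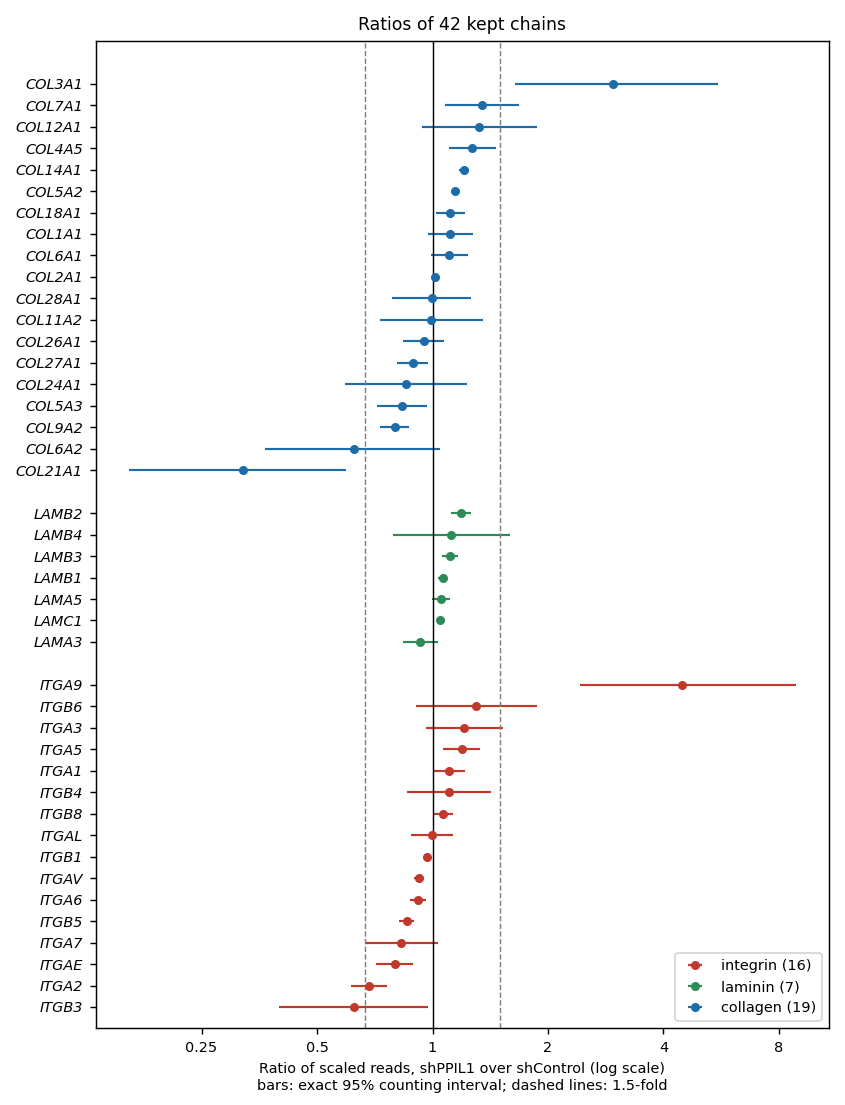
Ratio of scaled reads, shPPIL1 over shControl (log axis), for 42 of the 43 kept chains by family, with exact 95% counting intervals as bars and 1.5-fold as dashed lines. Points past 1.5-fold have wide bars, and the abundant chains COL2A1, LAMC1 and ITGB1 have narrow bars close to 1.

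Taken family by family, small differences were common and large ones were few. At 1.5-fold or more with an interval excluding 1, 2 of 43 chains were higher (ITGA9 and COL3A1) and 3 lower, COL21A1 and ITGB3 among them. Both higher chains and these 2 lower ones passed the filter only through the library where they were high, so they had to differ, and nothing is read from their number. The background over all 12540 kept genes was 2.02% higher and 2.22% lower. At 2-fold, the same 2 chains were higher and COL21A1 alone was lower, against 0.526% and 0.518% of all kept genes. All 5 of these chains had under 2 CPM in both libraries. Of the 760 kept genes under 2 CPM in both, 13.4% were called higher and 14.5% lower at 1.5-fold, and of the 10 chains there, 2 and 3 were. At 5 CPM or more in at least 1 library, 0.615% of 10730 kept genes were higher and 0.941% lower at 1.5-fold. At that filter 27 chains were left, and 0 of them reached 1.5-fold. The chain furthest from 1 among these was ITGA2, 1.46-fold lower.

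By the interval alone, 15 chains were higher and 12 lower, and for 16 the interval held 1. COL3A1 and ITGA9 are among the 15, and COL21A1 and ITGB3 among the 12. These chains passed the filter only through the library where they were high and had to differ in order to enter. The background was 24.6% of kept genes higher and 26.4% lower. The chains' shares, 34.9% and 27.9%, read against that and include the chains that had to differ. The interval holds counting error alone and not the spread between cultures, which was not measured. With those chains counted, the split was 7 higher and 4 lower of 19 collagens, 4 and 1 of 8 laminins, and 4 and 7 of 16 integrins. The median log2 ratio was 0.03 for collagens, 0.08 for laminins and -0.02 for integrins, beside 0.00 for all kept genes. With library totals in place of the scaled sizes, the medians were 0.11, 0.10 and 0.00, and 18 collagens were kept. Summed over all genes of a family, collagens stood at 480 and 506 FPKM, laminins at 139 and 150 and integrins at 370 and 358.

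**Figure D3:**
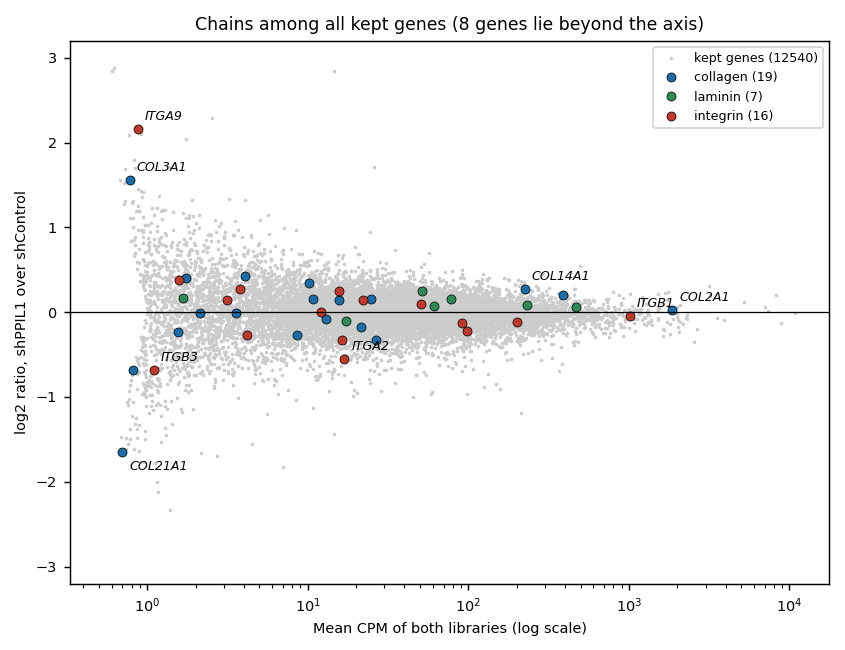
Log2 ratio, shPPIL1 over shControl, against the mean CPM of both libraries (log axis) for all 12540 kept genes (grey) and 42 of the 43 kept chains (coloured by family), with 8 genes beyond the axis. The chains past 1.5-fold sit at the left edge, where grey points also spread widely.

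The ratio of chains that assemble with each other was compared in each library for 22 pairs taken from known assemblies, of which 16 had at least 10 reads of both chains in both libraries. For these, the FPKM ratio was taken in each library and the change between libraries as the ratio of ratios, which needs no library scaling. The interval of the change excluded 1 for 11 pairs, 8 higher and 3 lower, and included 1 for 5. Direction depends on which chain is written first, and many pairs share ITGB1 or LAMC1. No share over other gene pairs was computed, so nothing is read from these counts. LAMB1 to LAMC1 was 0.850 (0.829 to 0.872) in shControl and 0.863 (0.842 to 0.884) in shPPIL1, so that the beta and gamma chains were within 1.18-fold of each other. The change was 1.02 (0.980 to 1.05). LAMA5 to LAMC1 was 0.0968 and 0.0972, with a change of 1.00 (0.946 to 1.07), which left the alpha chain about 10.3-fold below the gamma chain in both. LAMB2 to LAMC1 went from 0.145 to 0.164, a change of 1.13 (1.06 to 1.21).

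COL6A1 exceeded COL6A2 11.7-fold and 20.8-fold, a change of 1.78 (1.05 to 3.06), which rests on 41 and 26 reads of COL6A2, a chain that passed the filter through shControl alone.

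ITGB1 was in excess of its alpha partners. The 12 alpha chains that can pair with it summed to 60.0 FPKM in shControl and 57.1 in shPPIL1, and ITGB1 exceeded that sum 4.50-fold and 4.64-fold. This sum counts ITGAV in full, although it also joins other beta chains, and ITGA6, which also joins ITGB4. Relative to ITGB1, ITGA2 was lower (change 0.707, 0.634 to 0.789), as were ITGAV (0.952, 0.920 to 0.984) and ITGA6 (0.947, 0.903 to 0.994). ITGA5 (1.23, 1.10 to 1.38), ITGA1 (1.14, 1.04 to 1.26) and ITGA9 (4.61, 2.50 to 9.16) were higher relative to ITGB1. Of these, ITGA9 passed the filter through shPPIL1 alone, and ITGA1 shares windows with PELO, as given above. ITGAV to ITGB5 was 1.22 in shControl and 1.32 in shPPIL1, a change of 1.07 (1.02 to 1.13). ITGA6 exceeded ITGB4 36.1-fold and 29.9-fold, with a change of 0.830 (0.641 to 1.07).

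**Figure D4:**
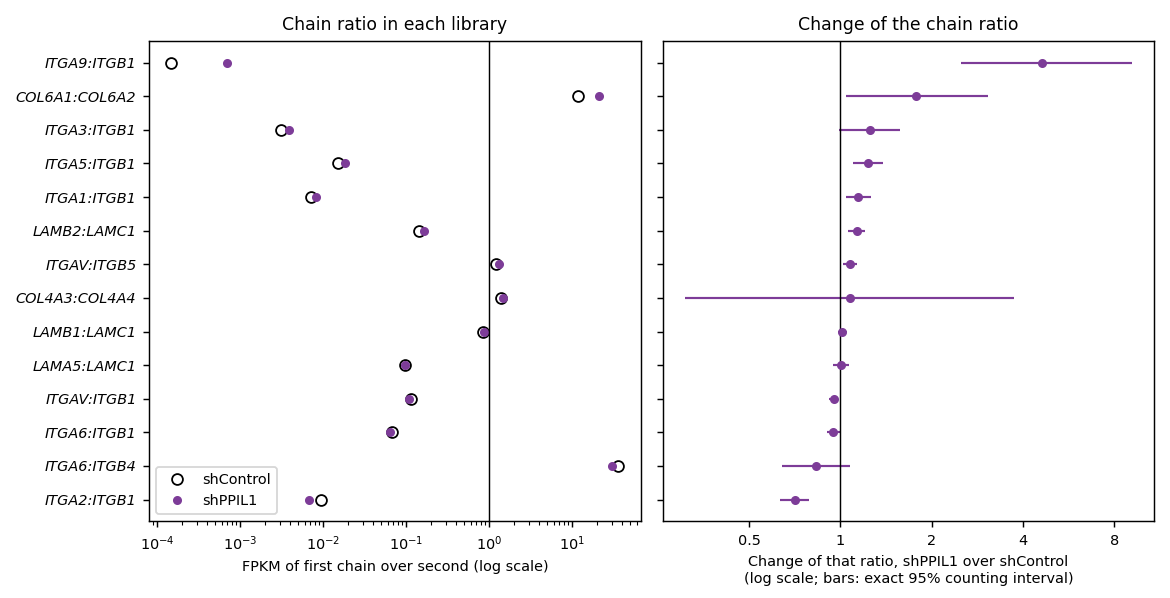
Left, FPKM of the first chain over the second (log axis) in each library for 14 of the 16 usable pairs. Right, the change of that ratio, shPPIL1 over shControl (log axis), with exact 95% counting intervals: LAMB1:LAMC1 and LAMA5:LAMC1 lie at 1, ITGA2:ITGB1 lies lowest and ITGA9:ITGB1 highest.

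Genes that fold, modify and crosslink collagen included both higher and lower members. Of 33 listed, 26 were kept, 8 (30.8%) higher and 5 (19.2%) lower with an interval excluding 1, beside 24.6% and 26.4% of all kept genes. The median log2 ratio was -0.01, beside 0.00 for all kept genes. LOX, the secreted oxidase that crosslinks collagen and elastin, had 4109 and 2738 reads (22.1 and 14.7 FPKM), a ratio of 0.655 (0.624 to 0.687). FKBP14, a prolyl isomerase of the endoplasmic reticulum that acts on collagen, had a ratio of 0.760 (0.656 to 0.879). TLL1, a protease that trims procollagen, had 46 and 83 reads, a ratio of 1.77 (1.22 to 2.60), and P3H3, of the prolyl 3-hydroxylase family, had 62 and 104 reads, a ratio of 1.65 (1.19 to 2.30).

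Among basement membrane partners and adhesive glycoproteins, 12 of 23 were kept, 6 higher and 2 lower, against the same 24.6% and 26.4%, with a median of 0.04. NID1, the nidogen that links laminin to type IV collagen, had 5970 and 6703 reads (25.1 and 28.1 FPKM), a ratio of 1.10 (1.07 to 1.14). FBN1, the microfibril protein fibrillin, had a ratio of 1.21 (1.07 to 1.38). HSPG2, the basement membrane proteoglycan perlecan, had 2527 and 1954 reads (4.23 and 3.26 FPKM), a ratio of 0.760 (0.716 to 0.806). TINAGL1, a secreted matrix protein, had 42.5 and 29.6 FPKM, a ratio of 0.688 (0.653 to 0.725).

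Of 37 genes listed for the intracellular adhesion machinery, 32 were kept, 6 (18.8%) higher and 13 (40.6%) lower, beside 24.6% and 26.4% of all kept genes, with a median of -0.02. CRKL, an adaptor that relays signals from adhesion sites, had 8344 and 4516 reads (46.5 and 25.1 FPKM), a ratio of 0.532 (0.513 to 0.551). FERMT1, a kindlin that activates integrins, had 717 and 447 reads, a ratio of 0.613 (0.543 to 0.690). KANK2, an adaptor at the rim of adhesions, had a ratio of 1.21 (1.09 to 1.33). Of 20 other matrix receptors and integrin-associated membrane proteins, 19 were kept, 6 (31.6%) higher and 6 (31.6%) lower, with a median of -0.01. SDC4, the syndecan that works beside integrins at focal adhesions, had 16411 and 24447 reads (157 and 233 FPKM), a ratio of 1.46 (1.43 to 1.49). SDC2 had a ratio of 1.18 (1.14 to 1.22), DDR1, a collagen receptor kinase, 0.795 (0.693 to 0.911), and SDC1 0.861 (0.804 to 0.923).

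The chains were exon-rich genes, a property the choice by symbol did not use. By the longest coding transcript of GENCODE 29, the 43 kept chains had a median of 32 exons (51 for collagens, 32.5 for laminins and 27 for integrins), against 9 for the 12112 kept genes with an exon number. The 16 kept chains with 40 exons or more had a median log2 ratio of 0.15, the 21 with 20 to 39 exons 0.00, and the 6 with fewer -0.06. Among other kept genes the medians were 0.03 for the 248 with 40 exons or more, 0.00 for 1630 with 20 to 39 and 0.00 for 10191 with fewer. The Spearman correlation of exon number with log2 ratio was 0.23 across the 43 chains, but 0.36 in collagens, -0.02 in integrins and -0.28 within the 16 chains of 40 exons or more, so no single trend ran through the chains. Across the 12112 genes it was 0.00. These are descriptions over genes that share both libraries.

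The 39 chains under the filter had at most 38 reads in either library, of which 27 had at least 1 read. In 9 of these the interval excluded 1, 6 higher and 3 lower, beside 8.83% and 7.35% of the 3659 genes with reads under the filter. These genes differ in read number, which was not matched. Reads were more numerous in shPPIL1 than in shControl for COL11A1 (5 and 29), COL17A1 (1 and 13), COL19A1 (2 and 11), ITGA4 (0 and 7), COL4A2 (0 and 6) and COL9A1 (0 and 6). They were fewer in shPPIL1 for ITGAD (38 and 22), COL10A1 (14 and 2) and COL4A6 (13 and 3). Ratios at such counts were wide, for example 5.70 (2.18 to 18.9) for COL11A1 and 0.140 (0.0155 to 0.611) for COL10A1.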

How the data were processed

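Messenger RNA was sequenced from 1 shControl and 1 shPPIL1 culture of Huh7 cells. The authors deposited raw counts per gene for 19927 genes and FPKM values per gene for each library. Per the submitters' processing notes the build was hg38. Not given in the sources used here were the aligner, counter, annotation and strand setting. Columns were tied to libraries through the column names in the labels. The count table held 7 further columns of counts under names that no label gives, which were left out throughout. In the deposited FPKM values, 99.9% of the gene lengths implied by count, library total and FPKM were whole within 0.001 bases.

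Chains were selected by symbol. The members and gene lists were chosen with earlier results of these data known. Library sizes were scaled by TMM (edgeR 4.0.16, R 4.3.3), and genes with 1 CPM in at least 1 library were kept, 12540 in all. Ratios have exact Clopper-Pearson intervals (SciPy 1.17.1) and changes of chain ratios conditional exact intervals. Equal counts of 100 give an interval reaching 1.33-fold, and equal counts of 1000 give 1.09-fold. Since PCR copies were not marked by molecular identifiers, reads are not independent molecules and intervals cover counting error only. Steps were tested on simulated data. With 1 library per group no p-value is given.

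Chains were named at a mean of 10 FPKM or more, past 1.5-fold with an interval excluding 1, or as part of a pair, and up to 2 higher and 2 lower genes of each other list by interval bound; further chains were given to account for the members. A chain and another gene that this rule takes, and pairs with that chain, are not reported here. Positions and exons came from GENCODE 29 and upstream sequence from RefSeq (GRCh38.p14), both of the build named in the notes. Shared sequence was sought with exact 100-base windows every 10 bases. Alternatives were library totals, the median-of-ratios size factors of DESeq2 1.42.0, other filters, a 99% interval and log2(FPKM + 1).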

Additional observations from a re-analysis of the deposited data

How the results depend on the processing

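The median log2 ratio of the kept chains stayed between 0.05 and 0.09 under the alternatives run, and the counts of chains with an interval excluding 1 stayed within 1.5 times those given. Counts past a fold depended on the filter. Without a filter, 8 chains were higher and 6 lower at 1.5-fold and 8 higher and 3 lower at 2-fold, of 70 with reads, beside 3.56%, 3.38%, 2.33% and 1.97% of the 16199 genes with reads. At 5 CPM or more all 4 counts were 0, beside 0.615%, 0.941%, 0.0652% and 0.103% of 10730 genes. With the mean of both libraries at 1 CPM or more, 0 chains were higher at 1.5-fold or 2-fold and 0 lower at 2-fold. At 1.5-fold 2 were lower, ITGB3 among them. ITGA9, COL3A1 and COL21A1 were not kept at that filter. Of its 12369 genes, 1.68% were higher and 1.88% lower at 1.5-fold, and 0.291% and 0.307% at 2-fold. With a 99% interval 1 chain was lower at 1.5-fold, beside 1.84% of 12540 genes. On log2(FPKM + 1), which shrinks low genes, all 4 counts were 0. Library totals and median-of-ratios size factors left the 4 counts as they were. Of the 48 values for single named chains under these scalings and log2(FPKM + 1), 7 left the counting interval and 0 changed direction. Library totals gave 2 of the 7, both for abundant chains with narrow intervals, and log2(FPKM + 1) gave 5. With library totals, the log2 ratio of COL2A1 was 0.046 in place of 0.026. That of ITGB1 was -0.027 in place of -0.048. No paired analysis was possible because each group has 1 library.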
